A study of Mus musculus with 6 samples.

Results

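The genes described here are 9 carriers and receptors of lipoproteins in the brain, 9 of 13582 genes in the deposited table. These genes were chosen by name and not by a cutoff on any measured value, though earlier results of these data were known. They comprise 3 secreted carriers (Apoe, Clu and Apod), 2 lipid transporters of the cell membrane (Abca1 and Abcg1) and 4 receptors (Lrp1, Lrp8, Sort1 and Sorl1). Each had exactly 1 row under its own symbol, and all 9 passed the filter on low values. RNA was sequenced from the right cerebral cortex of 6 mice of the C57BL/6 strain, which were 10 weeks old at sacrifice. Of these, 3 mice had received 1 intraperitoneal injection of resveratrol, a plant polyphenol, at 10 mg/kg, and 3 had received vehicle, each 2 weeks before the tissue was taken. The dose field of the vehicle mice also reads 10 mg/kg, while their treatment is given as vehicle. The design text puts 3 mice in each group. No ischemia, transgene or other agent is named for these mice, and the series asks what the cortical transcriptome looks like in the late window of tolerance to ischemia after resveratrol.

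The brain makes its own lipoproteins, since those of the blood hardly cross the vessel wall. Astrocytes secrete particles built on apolipoprotein E and clusterin, ABC transporters load them with cholesterol and phospholipid, and neurons and glia take them up through receptors of the LDL receptor family. Liver X receptors (LXR), nuclear receptors that sense oxysterols, switch on Abca1, Abcg1 and Apoe when cells hold much cholesterol. Sortilin and its relative SORLA, products of Sort1 and Sorl1, carry receptors and ligands between the Golgi, the endosome and the surface.

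Promoter sequences are shown for a pair of LXR-controlled genes, a cholesterol pump and the carrier it loads. Their values went opposite ways across the 6 libraries (Pearson's r = -0.721). The libraries also differ in trends with transcript length and GC content (the share of G and C bases), given below. Both sequences are the 250 bases before the annotated start of RefSeq on GRCm38.p6. Both genes lie on the minus strand: Abca1 at chr4:53159896-53160145 and Apoe at chr7:19699189-19699438. Capitals mark a match to GGTTANNNNCGGTCA, the letters of the LXR element known from the Abca1 promoter, searched on both strands. It was found in Abca1 from 67 to 53 bases before the start, on the reverse strand, and not in this Apoe window.
Abca1: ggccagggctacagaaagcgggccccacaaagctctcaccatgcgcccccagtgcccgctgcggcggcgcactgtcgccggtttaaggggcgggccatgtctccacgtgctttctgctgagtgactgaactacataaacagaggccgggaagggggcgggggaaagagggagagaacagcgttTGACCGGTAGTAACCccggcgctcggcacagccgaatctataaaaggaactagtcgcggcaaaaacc
Apoe: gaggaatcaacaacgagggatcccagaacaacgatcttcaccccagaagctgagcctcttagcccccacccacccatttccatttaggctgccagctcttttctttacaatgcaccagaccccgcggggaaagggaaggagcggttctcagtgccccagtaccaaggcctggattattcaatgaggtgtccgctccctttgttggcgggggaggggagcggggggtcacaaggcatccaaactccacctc
Of 32851 promoter windows in the RefSeq table, 4 (0.0122%) held this element. Its letters come from the Abca1 promoter, so the match in Abca1 was fixed in advance. The match and this share therefore do not set Abca1 apart from Apoe. A search for the perfect repeat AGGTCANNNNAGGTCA found it in 5 windows (0.0152%) and in none of the windows of the members. The table had entries for 6 of the 9 genes, and Clu, Abcg1 and Sort1 had none. An element outside these 250 bases would not be seen. A match is a description of letters, and binding was not measured. Whether the element bears on the values of either gene was not tested.

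Levels are given in FPKM, in which fragments are divided by transcript length and by the size of the library, so that the unit allows genes to be compared within a library. The listed FPKM summed to between 351731 and 397876 per library, the median gene lay between 9.85 and 10.2 FPKM, and the sequencing depth is unknown. Markers of cortical excitatory neurons were present (10 of 10), and markers of striatal projection neurons, which the cortex holds few of, were also present (11 of 11). All 11 striatal markers were below vehicle (median log2 fold change -0.30, 0 past limma's threshold and 0 with an unadjusted p under 0.05), and they summed to 266, 582 and 388 FPKM in resveratrol 1, 2 and 3, against 834, 472 and 319 FPKM in vehicle 1, 2 and 3. The libraries differed in how values followed transcript length and GC content. Deviations from the mean of each gene correlated with the length of the longest coding transcript across 13047 genes at a Spearman rho of -0.00794, -0.146 and -0.327 in resveratrol 1, 2 and 3, against 0.318, 0.502 and -0.526 in vehicle 1, 2 and 3. With the GC content of that transcript the rho was -0.465, 0.240 and 0.586 in resveratrol 1, 2 and 3. In vehicle 1, 2 and 3 it was -0.362, 0.0355 and -0.0144. Among the members GC content ran from 47.4% in Lrp8 to 57.9% in Lrp1 and 59.5% in Apoe. The length trend differs most between vehicle libraries, and the members range from 1408 to 14888 bases. For this reason the transcript length of each gene is given with its values. In bulk tissue, fewer cells of a type and less RNA per cell cannot be told apart.

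The 9 genes covered a wide range of levels, and the order was nearly fixed. Averaged over 6 libraries, Apoe stood first at 686 FPKM, which is position 23 among all listed genes, followed by Clu at 326 FPKM (position 102) and Sort1 at 116 FPKM (position 510). Apod (66.9 FPKM) and Sorl1 (66.5 FPKM) came next and could not be ordered, since Apod was above Sorl1 in 3 of 6 libraries. Below them stood Lrp1 at 32 FPKM, Abcg1 at 16.7 FPKM, Lrp8 at 12.1 FPKM and Abca1 at 7.34 FPKM. Except for Apod and Sorl1, neighbours in this order did not overlap in any library. Apoe alone made up 0.169% to 0.218% of all listed FPKM in resveratrol and 0.155% to 0.190% in vehicle.

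**Figure D1:**
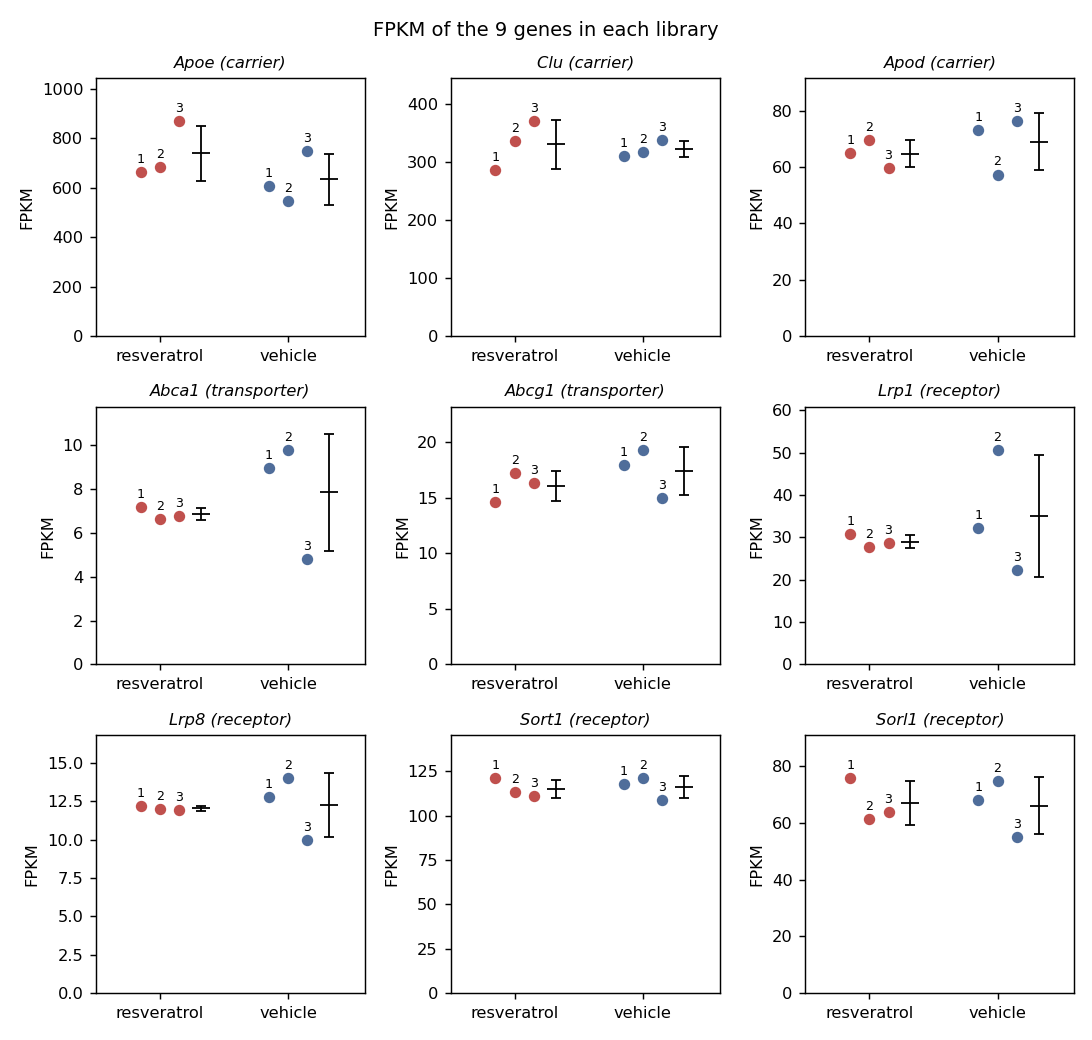
FPKM (y axis, from 0) of each of the 9 genes in resveratrol libraries (left, red) and vehicle libraries (right, blue), with the replicate number above each point and the mean and SD of the 3 libraries beside them. The groups overlap in every panel, and the resveratrol points of Abca1, Lrp1 and Lrp8 lie close together inside the range of the vehicle points.

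Resveratrol was set against vehicle to ask which genes differ in the cortex 2 weeks after the injection. None of the 9 genes passed the test, and none had groups that did not overlap. Of all 13574 tested genes, 0.00737% (1 gene, Eif3j1, uncertain since 36.6% of its 50-base words also occur in Eif3j2) passed limma's adjusted threshold of 0.05 and 6.28% had groups without overlap. At an unadjusted p under 0.05 the count was 0 of 9 members and 329 of all genes. A q under 0.05 stood beside 0.744% of genes in the authors' deposited table, and beside 0 of the 9. Resveratrol was above vehicle in 3 members and below it in 6, and their median log2 fold change of -0.01 stood beside 0.02 for all tested genes. The limma adjusted p of the 9 genes lay between 0.987 and 0.998.

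**Figure D2:**
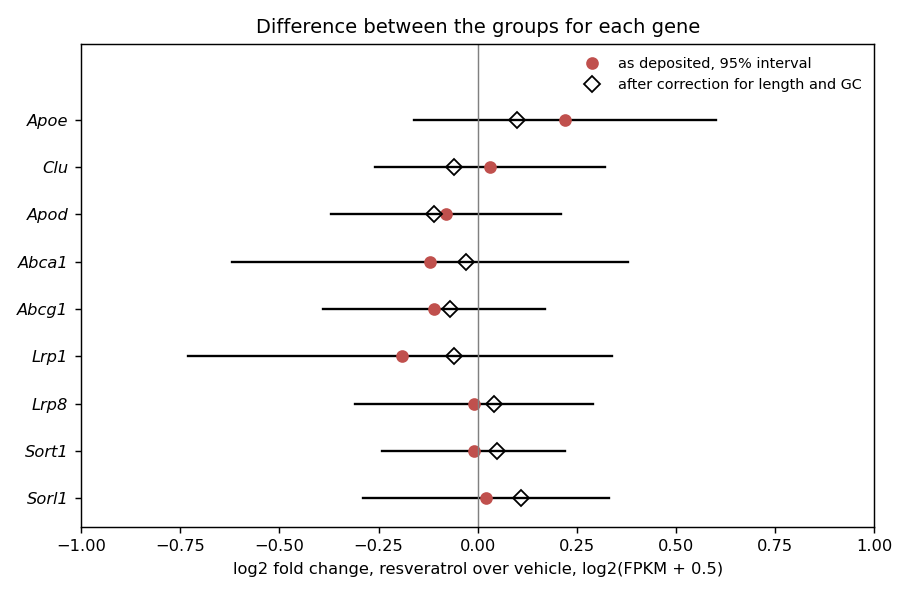
Log2 fold change of resveratrol over vehicle (x axis, log2 of FPKM + 0.5) for each gene, with its 95% interval from limma, and, as open diamonds, the value after correcting each library for transcript length and GC content. Every interval includes 0, and the widest belong to Lrp1 (-0.73 to 0.34) and Abca1 (-0.62 to 0.38).

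Among the carriers, Apoe encodes the main apolipoprotein of the brain, and the gene lies on chromosome 7 from 19696109 to 19699188 (minus strand, GRCm38, GENCODE M21), with a longest coding transcript of 1408 bases. Apoe had 665, 682 and 868 FPKM in resveratrol 1, 2 and 3, against 607, 546 and 747 FPKM in vehicle 1, 2 and 3. Resveratrol 3 was the highest library and vehicle 2 the lowest, while vehicle 3 lay above 2 of the resveratrol libraries. The means were 738 ± 113 FPKM in resveratrol and 633 ± 103 FPKM in vehicle (SD, n = 3 each), a log2 fold change of 0.22 ± 0.17 (SE, 95% interval -0.16 to 0.60). This was the largest positive difference of the 9 genes, and it was within the spread of the libraries (limma adjusted p = 0.987). It was 0.10 ± 0.18 without resveratrol 3, 0.35 ± 0.14 without vehicle 3 (limma adjusted p = 0.246) and 0.10 ± 0.10 after correction for length and GC content. With quantile normalization, which also aligns the upper ends of the libraries, it was 0.09, and with only vehicle 3 kept as vehicle it turned to -0.03.

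Clu encodes clusterin, or apolipoprotein J, an extracellular chaperone carried on the same particles (chromosome 14, 65968483 to 65981547, plus strand, 1810 bases). Clu had 286, 336 and 370.4 FPKM in resveratrol 1, 2 and 3, against 311, 318 and 338 FPKM in vehicle 1, 2 and 3. The resveratrol libraries held both the lowest and the highest value. The means were 331 ± 42.5 FPKM in resveratrol and 322 ± 14 FPKM in vehicle (SD, n = 3 each), with a log2 fold change of 0.03 ± 0.13 (SE). Clu was the one member with a larger spread in resveratrol than in vehicle. Its sign was not fixed: the value was -0.06 without resveratrol 3 and -0.06 after correction for length and GC content.

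Apod encodes apolipoprotein D, a lipocalin that binds small lipids, made by oligodendrocytes and perivascular cells (chromosome 16, 31296192 to 31314808, minus strand, 2074 bases). Apod had 65.0, 69.5 and 59.8 FPKM in resveratrol 1, 2 and 3, against 73.3, 57.4 and 76.3 FPKM in vehicle 1, 2 and 3. All 3 resveratrol values fell between the lowest and the highest vehicle value. The log2 fold change was -0.08 ± 0.13 (SE, 95% interval -0.37 to 0.21). It was -0.21 ± 0.12 without vehicle 2, the lowest library, and -0.01 ± 0.12 without vehicle 3, the highest.

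Markers of the cells that make these carriers are given beside them. Those of astrocytes (10 of 10 tested, 4 above and 6 below vehicle) summed to 956 to 983 FPKM in resveratrol and 921 to 1180 FPKM in vehicle, and 0 passed the test. Slc1a2 was the largest of them in every library. It had 358, 336 and 294 FPKM in resveratrol 1, 2 and 3, against 493, 584 and 269.6 FPKM in vehicle 1, 2 and 3. Markers of oligodendrocytes (10 of 10 tested, 1 above and 9 below) summed to 1286 to 1516 FPKM in resveratrol and 1511 to 1602 FPKM in vehicle. Clu and Apoe are also expressed in ventricular epithelia. Choroid plexus markers (8 of 11 tested, all 8 above vehicle, with Aqp1, Otx2 and Slc4a5 not tested) summed to 145, 50.2 and 461 FPKM in resveratrol 1, 2 and 3, against 18.3, 54.7 and 115 FPKM in vehicle 1, 2 and 3. Most of each sum was Ttr, with 137, 43.2 and 441 FPKM in resveratrol 1, 2 and 3, against 13.3, 46.4 and 108 FPKM in vehicle 1, 2 and 3. The highest sum was in resveratrol 3, the library in which Apoe and Clu were highest, and the next in resveratrol 1, where Clu was lowest of all 6 libraries. Ependymal markers (5 of 8 tested, all 5 below vehicle) summed to 8.12 to 9.34 FPKM in resveratrol and 12.2 to 13.3 FPKM in vehicle. Of the markers in these 4 lists, Aldh1l1 (1 of 10 for astrocytes) and Calml4 (1 of 8 for choroid plexus) were above vehicle without overlap. Ccdc153, Tmem212 and Rarres2 (3 of 5 for ependyma) were below it without overlap. Of all tested genes, 6.28% had groups without overlap in either direction. An unadjusted limma p under 0.05 was found for 3 ependymal, 1 choroid plexus, 0 astrocyte and 0 oligodendrocyte markers. None of the markers in these 4 lists passed limma's threshold (adjusted p = 0.987 for each of the 5 without overlap). The part of these cells in the values of the carriers was not tested.

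The ratio of carriers within a library was compared as well. Apoe over Apod was 10.2, 9.81 and 14.5 in resveratrol 1, 2 and 3, against 8.29, 9.50 and 9.78 in vehicle 1, 2 and 3. These groups did not overlap, by a margin of 9.81 against 9.78. An exact permutation test (two-sided) gave p = 0.1, the smallest that 3 against 3 allows, and 0.6 after adjustment over the 6 ratios computed. Apoe over Clu was 2.23 ± 0.176 in resveratrol and 1.96 ± 0.247 in vehicle (SD, n = 3 each; exact permutation test, p = 0.2). The other 4 ratios, Abcg1 over Abca1, Sort1 over Sorl1, Lrp1 over Lrp8 and Lrp1 over Apoe, overlapped between the groups.

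Of the transporters, Abca1 encodes the pump that hands cholesterol and phospholipid to lipid-poor apolipoproteins (chromosome 4, 53030787 to 53159895, minus strand, 10262 bases). Abca1 had 7.18, 6.63 and 6.75 FPKM in resveratrol 1, 2 and 3, against 8.95, 9.77 and 4.78 FPKM in vehicle 1, 2 and 3. The resveratrol libraries lay close together in the gap between vehicle 3 and the other vehicle libraries. The means were 6.85 ± 0.288 FPKM in resveratrol and 7.83 ± 2.68 FPKM in vehicle (SD, n = 3 each), with a log2 fold change of -0.12 ± 0.22 (SE). The direction depended on the vehicle libraries: it was -0.42 ± 0.12 without vehicle 3 (limma adjusted p = 0.137) and 0.06 ± 0.22 without vehicle 2.

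Abcg1 encodes a half-transporter that passes cholesterol to particles already lipidated (chromosome 17, 31057675 to 31117988, plus strand, 5832 bases). Abcg1 had 14.6, 17.2 and 16.3 FPKM in resveratrol 1, 2 and 3, against 17.9, 19.3 and 15 FPKM in vehicle 1, 2 and 3. The lowest value was resveratrol 1 and the highest vehicle 2. The log2 fold change was -0.11 ± 0.13 (SE, 95% interval -0.39 to 0.17), and -0.21 ± 0.11 without vehicle 3 (limma adjusted p = 0.37) or -0.03 ± 0.13 without vehicle 2. Abca1, Abcg1 and Apoe share control by LXR, yet across the 6 libraries Abca1 and Abcg1 went together (Pearson's r = 0.770) while Apoe went against both (r = -0.721 and -0.621). These correlations describe 6 libraries that also share the length and GC trends given above. After correction for both, the log2 deviations of Abca1 were 0.17, 0.19 and -0.31 in vehicle 1, 2 and 3. Those of Abcg1 were 0.07, 0.01 and 0.02. In resveratrol 1, 2 and 3 they were 0.00, -0.07 and 0.02 for Abca1 and -0.11, 0.04 and -0.04 for Abcg1. The part of these trends in the correlations was not tested.

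Lrp1 encodes the large endocytic receptor that takes up apolipoprotein E, on chromosome 10 from 127538161 to 127621148 (minus strand), and its 14888-base transcript was the longest of the 9. Lrp1 had 30.8, 27.7 and 28.6 FPKM in resveratrol 1, 2 and 3, against 32.3, 50.7 and 22.2 FPKM in vehicle 1, 2 and 3. Vehicle 2 was 2.28 times vehicle 3, whereas the highest resveratrol library was 1.11 times the lowest. The means were 29.0 ± 1.58 FPKM in resveratrol and 35.1 ± 14.4 FPKM in vehicle (SD, n = 3 each). The log2 fold change of -0.19 ± 0.24 (SE) was the lowest of the 9 genes, and it turned to 0.11 ± 0.16 without vehicle 2 and stood at -0.48 ± 0.17 without vehicle 3 (limma adjusted p = 0.192). In the authors' deposited table Lrp1 had a log2 fold change of -0.27 and a q of 0.871, while the q of the other 8 genes rounded to 0.9997.

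Lrp8 encodes the receptor of apolipoprotein E and reelin known as APOER2, a neuronal receptor that acts at synapses (chromosome 4, 107802261 to 107876840, plus strand, 6627 bases). Lrp8 had 12.2, 12 and 11.9 FPKM in resveratrol 1, 2 and 3, against 12.8, 14 and 9.97 FPKM in vehicle 1, 2 and 3. The resveratrol libraries were nearly equal, with a coefficient of variation of 1.18%, against 16.8% in vehicle. The log2 fold change was -0.01 ± 0.13 (SE, 95% interval -0.31 to 0.29). The annotated genes Lrp8os1 and Lrp8os2 overlap Lrp8 on the opposite strand, and whether the authors' counting used strand is not given in the sources used here. Lrp8 is not alone in this. Gm16217, Gm12523 and Gm16214 overlap Lrp1, Sort1 and Sorl1 on the opposite strand, and Gm25447 and Gm43099 overlap Abcg1 and Sort1 on the same strand.

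Sort1 and Sorl1 encode sorting receptors with a VPS10P domain; sortilin also binds progranulin and neurotrophin precursors, and SORLA steers the amyloid precursor protein away from cleavage. Sort1 (chromosome 3, 108284082 to 108361511, plus strand, 6836 bases) had 121, 113 and 111 FPKM in resveratrol 1, 2 and 3, against 118, 121 and 109 FPKM in vehicle 1, 2 and 3. It varied least of the 9 genes, with an SD of log2 FPKM over 6 libraries of 0.065, and only 3.6% of all tested genes varied less. Its log2 fold change was -0.01 ± 0.10 (SE), and the 95% interval of -0.24 to 0.22 corresponds to between 0.849 and 1.17 times the vehicle level. Sorl1 (chromosome 9, 41964720 to 42124297, minus strand, 10715 bases) had 75.7, 61.2 and 63.8 FPKM in resveratrol 1, 2 and 3, against 68.2, 74.9 and 55.0 FPKM in vehicle 1, 2 and 3. Both the highest library, resveratrol 1, and the next, vehicle 2, lay well above vehicle 3, and the log2 fold change was 0.02 ± 0.14 (SE). Sort1 and Sorl1 followed each other across the 6 libraries (Pearson's r = 0.960), with the same caution on the shared length and GC trends.

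The spread within the groups was also compared. In 8 of 9 members (88.9%) the SD of log2 FPKM was smaller in resveratrol than in vehicle, and the same held for 61.4% of all tested genes. In 4 of 9 (44.4%), Apod, Abca1, Lrp1 and Lrp8, the whole resveratrol range lay inside the vehicle range, against 30.6% of all tested genes. After correction for length and GC content, a check chosen after seeing the data, the SD was smaller in resveratrol in 5 of 9 members (55.6%), against 65.4% of 13047 genes, and the resveratrol range lay inside the vehicle range in Abca1 and Lrp8 (22.2%), against 29.6%. The wider spread of Lrp1, Abcg1 and Sorl1 in vehicle was therefore not kept under this correction. With 3 libraries per group, these shares describe the libraries and were not tested. Over all 6 libraries the SD of log2 FPKM was 0.389 for Lrp1 and 0.340 for Abca1, larger than in 94.9% and 92.0% of tested genes, while the median gene had 0.167.

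**Figure D3:**
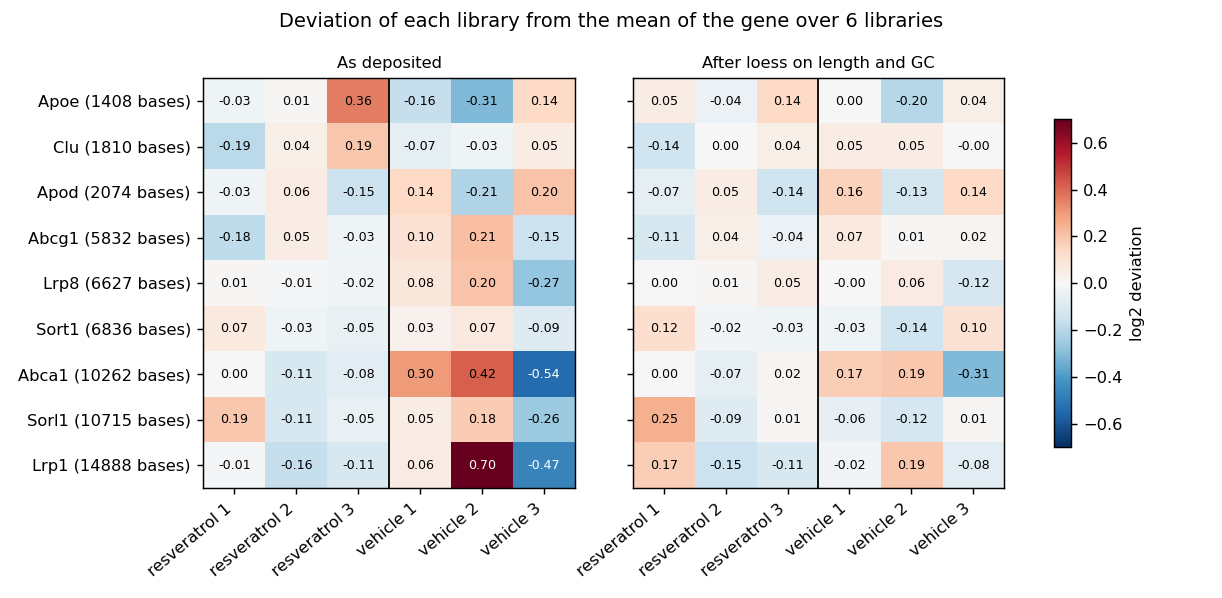
Log2 deviation of each library from the mean of the gene over 6 libraries, with genes ordered from the shortest transcript (top) to the longest (bottom) and resveratrol libraries left of vehicle libraries. The left panel shows the values as deposited and the right panel what is left after a loess fit on length and GC content: Lrp1 in vehicle 2 is 0.70 on the left and 0.19 on the right, and Abca1 in vehicle 3 is -0.54 and -0.31.

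The members with long transcripts deviated in the vehicle libraries in the direction of the length trend. In vehicle 2, Lrp1 stood 0.70 above its mean on the log2 scale, where the loess fit across all genes gave 0.51 for a transcript of its length and GC content. In vehicle 3 it stood 0.47 below its mean (-0.47), where the fit gave -0.39. For Abca1 the deviations were 0.42 and -0.54 and the fits 0.23 and -0.23, so that 0.19 and -0.31 were left. Apoe, the shortest, deviated the other way, with -0.31 in vehicle 2 (fit -0.12) and 0.14 in vehicle 3 (fit 0.10). In resveratrol 3, Apoe deviated by 0.36 where the fit gave 0.22. After this correction the SD over 6 libraries was 0.145 for Lrp1, 0.182 for Abca1 and 0.113 for Apoe, and it was smaller than before in every member but Sort1 (0.097 against 0.065).

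Vehicle 2 and vehicle 3, chosen after their values were seen as the ends of the length trend, were set against each other. The difference of vehicle 2 minus vehicle 3 was negative in the 3 carriers, with -0.45 for Apoe, -0.09 for Clu and -0.41 for Apod. It was positive in the 2 transporters and 4 receptors, from 0.15 for Sort1 to 0.96 for Abca1 and 1.17 for Lrp1. Across the 9 members it followed transcript length with a Spearman rho of 0.867, and across 13047 genes the rho was 0.552. Transcripts under 2500 bases had a median of -0.24 (4546 genes) and those of 8000 bases or more a median of 0.40 (785 genes). The carriers had the 3 shortest transcripts, so role and length cannot be told apart in these members.

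**Figure D4:**
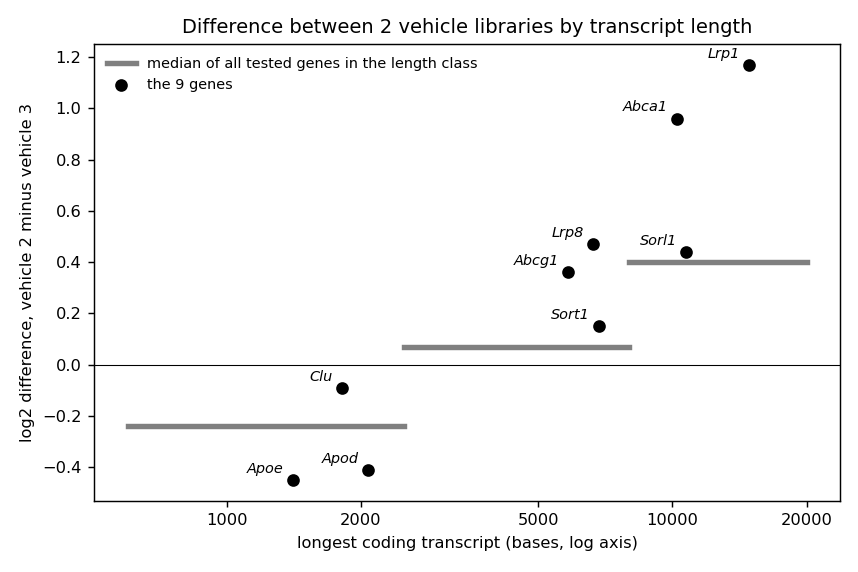
Log2 difference of vehicle 2 minus vehicle 3 (y axis) against the length of the longest coding transcript (x axis, log scale) for the 9 genes, with grey bars for the median of all tested genes under 2500 bases, from 2500 to 8000 bases, and of 8000 bases or more. Lrp1 and Abca1 stand at 1.17 and 0.96, above the median of 0.40 in their length class, and Sorl1 at 0.44 lies next to it.

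Correction for length and GC content brought 4 of the larger differences between the groups closer to 0. The log2 fold change was -0.06 ± 0.11 for Lrp1, -0.03 ± 0.14 for Abca1, -0.07 ± 0.08 for Abcg1 and 0.10 ± 0.10 for Apoe (SE). It was 0.11 ± 0.10 for Sorl1 and -0.11 ± 0.10 for Apod, both farther from 0 than before, and Clu (-0.06), Lrp8 (0.04) and Sort1 (0.05) changed sign. The limma adjusted p of the 9 genes lay between 0.892 and 0.966 in this fit, so 0 members passed with or without the correction.

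The genes whose pattern over the 6 libraries was most like that of a member were sought among the 9327 genes that averaged 5 FPKM or more. Vcl and Plekhm3 were nearest to Abca1 (Pearson's r = 0.998 and 0.997), Spred2 and Crkl to Lrp1 (0.997 and 0.996), and Plxnd1 and Phc1 to Abcg1 (0.998 and 0.994). Clasp1 and Papd7 were nearest to Lrp8 (0.989 and 0.988), Atp2a2 and Kantr to Sort1 (0.997 and 0.991), and Rab23 and Slc7a6 to Sorl1 (0.988 each). For the carriers these were Rexo4 and Commd4 beside Apoe (0.997 and 0.996), Sil1 beside Clu (0.989), and Ppp1r21 and Serinc3 beside Apod (0.992 and 0.988). An r over 0.9 was reached by 6.08% of the compared genes with Apoe (567 genes), 5.41% with Lrp1 (505) and 0.633% with Apod (59). The genes named are the nearest of 9327 over only 6 libraries, which also share the length and GC trends. High r values are therefore easily reached, and whether any of these genes are controlled together was not tested.

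Other genes of lipoprotein transport and its control were examined in 6 lists of 98 genes, of which 85 were tested. None passed limma's threshold, 1 (Apoa2) had an unadjusted p under 0.05, and 1 gene (1.18%) had groups without overlap, against 6.28% of all tested genes. The median log2 fold change of the 85 genes was -0.01. Of the other apolipoproteins 5 of 14 were tested, 2 above and 3 below vehicle. Apoa2, a protein of plasma HDL, had 1.41 ± 0.685 FPKM in resveratrol and 0.594 ± 0.336 FPKM in vehicle, and Apoc3, an inhibitor of lipoprotein lipase, had 0.393 ± 0.271 FPKM in resveratrol and 0.845 ± 0.365 FPKM in vehicle (SD, n = 3 each). Both are near the lower end of the table, and their groups overlapped.

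Among lipid transporters and remodelling enzymes, 10 of 22 were above vehicle and 12 below, with a median of -0.00. Lcat, which esterifies cholesterol on lipoproteins, had 9.48 ± 0.625 FPKM in resveratrol and 8.28 ± 0.755 FPKM in vehicle, and Osbp, an oxysterol-binding protein, had 20.0 ± 1.08 FPKM in resveratrol and 22.3 ± 2.84 FPKM in vehicle. Of the 14 genes of LXR and RXR control, 7 were above and 7 below. Nr1h2, which encodes LXR beta, had 10.7, 11.2 and 13.4 FPKM in resveratrol 1, 2 and 3, against 9.87, 10.9 and 9.02 FPKM in vehicle 1, 2 and 3 (log2 fold change 0.23 ± 0.13 SE). Its partner Rxrb differed by 0.21 ± 0.14, and Nr1h3, which encodes LXR alpha and was named for that role after its value was seen, by 0.22 ± 0.18. Nr1h3 was low, at 1.11 FPKM in resveratrol and 0.87 FPKM in vehicle. Of the other RXR genes, Rxra was above vehicle (0.14 ± 0.13) and Rxrg below it (-0.37 ± 0.43). Their targets among the members lay on both sides, with Apoe at 0.22 ± 0.17, Abca1 at -0.12 ± 0.22 and Abcg1 at -0.11 ± 0.13. No member of this list passed limma's threshold (adjusted p = 0.987 for Nr1h2).

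In the LDL receptor family 9 of 16 tested genes were above vehicle and 7 below, with a median of 0.02. Vldlr, the companion of Lrp8 in reelin signalling, had 19.2 ± 1.28 FPKM in resveratrol and 21.1 ± 1.93 FPKM in vehicle, and Lrp10 had 3.20 ± 0.409 FPKM in resveratrol and 3.80 ± 1.07 FPKM in vehicle. Of the 9 genes of reelin signalling 3 were above and 6 below vehicle, among them Dab1, the adaptor bound by both receptors (-0.13 ± 0.13), and the adaptor Crk (0.11 ± 0.11). Of the 19 VPS10P receptors, retromer subunits and adaptors 8 were above and 11 below. Vps35, the core subunit of retromer, differed by -0.15 ± 0.11 and the retromer partner Snx27 by -0.23 ± 0.17. Gga2, a Golgi adaptor that sorts sortilin, was the gene without overlap, with 4.76, 4.78 and 4.92 FPKM in resveratrol 1, 2 and 3, against 4.47, 4.42 and 3.90 FPKM in vehicle 1, 2 and 3 (limma adjusted p = 0.987).

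**Figure D5:**
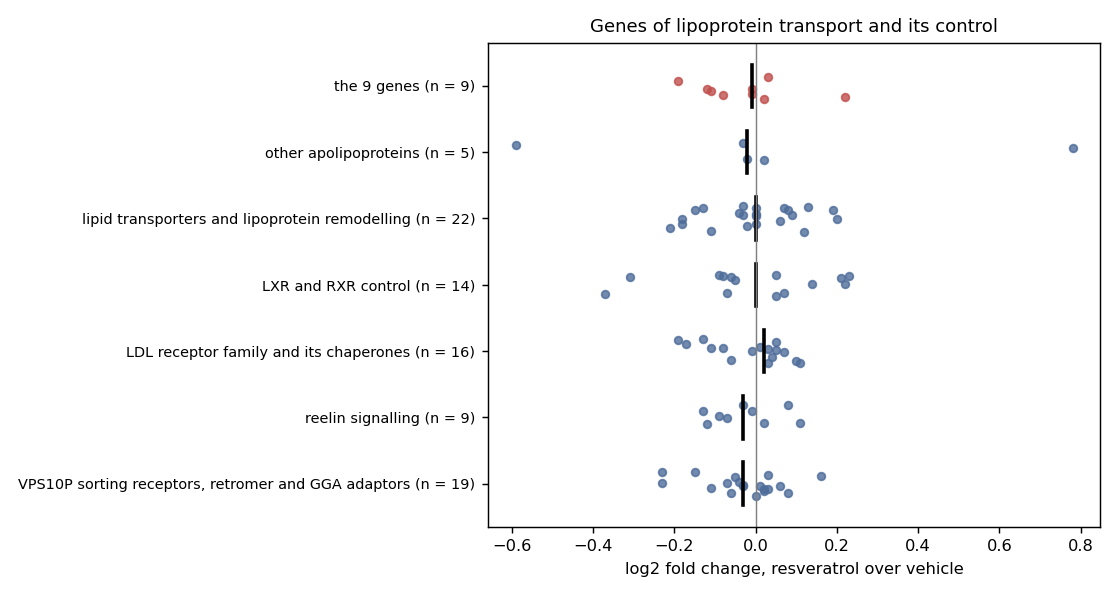
Log2 fold change of resveratrol over vehicle (x axis) for the 9 genes (red) and the tested genes of 6 further lists (blue), 1 point per gene, with a black bar at the median of each list. The medians lie between -0.03 and 0.02, and the points farthest from 0 are Apoa2 (0.78) and Apoc3 (-0.59), both of low FPKM.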

How the data were processed

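Per the labels' protocols, ribosomal RNA was removed and stranded libraries were made from total RNA of the right cortex of 6 mice. The authors deposited FPKM for each library, per the file headers, and beside them log2 values of the groups, their log2 ratio (resveratrol over vehicle), a p-value and a q-value. The submitters' processing notes list STAR, Cufflinks, Cuffdiff and GRCm38. Their roles and versions, the annotation, the gene filter and the use of strand are not given there or in the labels. Of 13582 rows, 23 bear dates in place of names and 2 values read as failed. Only 15.2% of the loci in the file overlap the like-named GRCm38 gene, so coordinates and lengths come from GENCODE M21, matched by name for 96.1% of rows.

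The 13574 genes that averaged 0.5 FPKM or more, without the failed values, were tested with limma 3.58.1 (R 4.3.3), after adding 0.5 to each FPKM and taking log2, with the prior variance following mean level. P-values are two-sided with Benjamini-Hochberg adjustment over all tested genes, and fold changes understate those of low genes. The fit was checked on simulated data. The length and GC correction was a loess fit (span 0.5) per library. Alternatives were other pseudocounts, filters, normalizations, variance settings, sample weights, the replicate block and libraries left out. The members, lists and alternatives were chosen with earlier results of these data known. The genes named from each further list are the 2 with the smallest p, and any without overlap where these number 5 or fewer. Depth could not be stated, so no counting interval is given, and p-values measure the spread between these 6 libraries. Between 0% and 0.389% of the 50-base words of each member occur in other genes. For each member the genes most like it in pattern are named, and 1 of them is not reported here.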

Additional observations from a re-analysis of the deposited data

How the results depend on the processing

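The count of members past the threshold was 0 in the reported fit and in 18 of 19 alternatives. The exception was sample weights estimated by REML, which did not converge and gave resveratrol 2 and vehicle 1 weights of 9.20 and 5.02: 4927 genes and 1 member passed, Abca1 (-0.38, limma adjusted p = 0.00737). Weights estimated gene by gene, chosen after seeing the data, gave 1390 genes and 0 members. The smallest limma adjusted p of a member was 0.0656 with those weights and 0.137 without sample weights, in both cases for Abca1. The number of genes called was 1 as reported, 1 to 7 with 1 library left out (3 without vehicle 2, 7 without vehicle 3) and 3 with vehicle 1 and 2 both left out. The median log2 fold change of the members was -0.01 and ranged from -0.10 to 0.06 with 1 library left out and from -0.10 to 0.09 over all alternatives. Apod kept its sign in all 18 alternatives that refit its value, and 25 of 162 values of the 9 members changed sign. With vehicle 1 and 2 left out, the lone vehicle library is assumed to vary like the others, and the values were -0.03 for Apoe, -0.04 for Clu, 0.48 for Abca1, 0.09 for Abcg1, 0.38 for Lrp1, 0.26 for Lrp8 and 0.08 for Sort1. The length and GC correction turned Clu to -0.06, Lrp8 to 0.04 and Sort1 to 0.05, quantile normalization turned Clu to -0.10 and Sorl1 to -0.03, and the 2 kinds of weights turned Sorl1 to -0.14 and -0.10. With 1 library left out the ranges were 0.10 to 0.35 for Apoe, -0.06 to 0.13 for Clu, -0.21 to -0.01 for Apod, -0.42 to 0.06 for Abca1, -0.21 to -0.03 for Abcg1, -0.48 to 0.11 for Lrp1, -0.15 to 0.09 for Lrp8, -0.05 to 0.02 for Sort1 and -0.10 to 0.12 for Sorl1. The cause of the changes of sign was not tested. With the replicate number as a block 1 gene and 0 members passed. Same-numbered libraries shared deviations at r = 0.0383, 0.148 and 0.184 and so are not taken as pairs, and resveratrol 2 correlated best with vehicle 1 (0.262). Depth is unknown, and 3 libraries per group leave 95% intervals of ± 0.23 to ± 0.54 on the log2 scale for the members.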

Other observations

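Together the 9 genes made up 0.324%, 0.348% and 0.386% of all listed FPKM in resveratrol 1, 2 and 3, against 0.344%, 0.344% and 0.350% in vehicle 1, 2 and 3. These shares overlapped between the groups.

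Markers of cell types not described with the carriers were summed as well. Microglial markers (5 above and 5 below vehicle) summed to 237 to 261 FPKM in resveratrol and 223 to 247 FPKM in vehicle. Markers of inhibitory neurons (3 above and 3 below) summed to 505 to 539 FPKM in resveratrol and 451 to 511 FPKM in vehicle. Pvalb, Sst and Vip were above vehicle, and Gad1, Gad2 and Slc32a1 below. Sst, the largest of them, averaged 257 FPKM in resveratrol and 211 FPKM in vehicle. Markers of cortical excitatory neurons (5 above and 5 below), mostly Slc17a7 and Camk2a, summed to 618 to 676 FPKM in resveratrol and 549 to 826 FPKM in vehicle. Oligodendrocyte precursor markers (1 above and 5 below) summed to 47.1 to 58.9 FPKM in resveratrol and 54.3 to 64.4 FPKM in vehicle. Endothelial markers (3 above and 5 below) summed to 106 to 129.8 FPKM in resveratrol and 120.5 to 146 FPKM in vehicle. Mural and fibroblast markers (4 above and 6 below) summed to 55.8 to 58.3 FPKM in resveratrol and 55.2 to 57.9 FPKM in vehicle. The 4 of 10 blood cell markers tested (1 above and 3 below) summed to 37.5 to 52.1 FPKM in resveratrol and 29.6 to 78.4 FPKM in vehicle. None of these markers passed limma's threshold of 0.05; at an unadjusted p under 0.05 there were 2 among the mural and fibroblast markers, 1 among those of blood cells and 0 among the others.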
